A study of Mus musculus with 17 samples.

Results

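The 46 genes described here are a fixed list of mouse cell cycle and mitosis genes, taken from the 18262 genes of the expression table by symbol, and all 46 were found. They were grouped by what their products do. The 27 genes of G2 phase and mitosis (G2/M) encode cyclins A and B, mitotic kinases, spindle and kinetochore proteins and cytokinesis proteins. The 10 core genes of the G1/S transition encode the Mcm helicase subunits, Pcna, both subunits of ribonucleotide reductase and thymidylate synthase. Another 5 G1/S genes encode the E cyclins, Cdc6, Cdt1 and Uhrf1, and 4 genes encode the transcription factors E2f1, E2f8, Foxm1 and Mybl2.

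Bulk RNA was sequenced from lungs of C57BL/6 mice in 4 groups of 4 libraries. The tumor_GEMy mice had received 500000 M3-9-M cells, a rhabdomyosarcoma line that carries firefly luciferase and mCherry, in the leg muscle, and on day 12 an intravenous dose of 8000000 IL12-GEMy cells. Those cells are myeloid cells engineered to secrete interleukin-12, and their label names bone marrow, lentiviral transduction and culture with SCF, FLT3L and IL-6. The tumor_untreated mice carried the tumor without the cells, the naive_GEMy mice received the cells without a tumor, and the naive_untreated mice received neither. Lungs were taken 3 days after the cells and 15 days after the tumor, and 1 further library came from the injected cell product. The labels give no sex or age, nor the day of cell injection or of harvest for a naive mouse, and do not state that each library is a different mouse, so p values measure the spread between libraries.

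Dividing cells switch on their cycle genes in sequence. E2F factors release the genes needed to license origins and build DNA before S phase, and later the B-Myb and Foxm1 proteins, acting with the MuvB complex, raise the genes of mitosis. In cells that are not dividing the same MuvB core forms the DREAM complex, which holds both sets down. Adult lung is largely a quiescent tissue, and lymphocytes, monocytes and progenitors that divide there can carry much of its cell cycle RNA. In bulk tissue, more dividing cells and more RNA per dividing cell cannot be told apart, and a rise in these transcripts does not say which cells carry them.

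The promoters of the members differ in sequence between these roles. RefSeq windows (GRCm38.p6, the build of the mm10 coordinates) from 250 bases before to 50 after the start were at hand for 39 of the 46 genes. The letters TTTGAA of the cell cycle homology region (CHR), the element through which MuvB binds, were searched on both strands, as were the CCAAT box and TTTNNCGC, a form of the E2F site. TTTGAA was in the window of 18 of 23 G2/M genes (78.3%), 1 of 9 core G1/S genes (11.1%) and 20.2% of all 27025 genes with a window. TTTNNCGC was in 2 of 23 G2/M genes (8.70%), 5 of 9 core G1/S genes (55.6%) and 5.93% of all genes. A CCAAT box was in 20 of 23 G2/M and 8 of 9 core G1/S genes, against 41.1% of all genes. TTTGAA together with CCAAT was in 17 of 23 G2/M genes (73.9%) and in 8.97% of all genes. In 16 of the G2/M genes TTTGAA lay within 50 bases of the start. Windows of other mitosis genes held TTTGAA in 56.1%, and those of other replication genes in 18.8%. The 150 bases before the start of 4 G2/M genes and 2 G1/S genes whose values are given below show this difference. Letters of these motifs are in capitals (a motif on the other strand is shown as its reverse complement).
Top2a (chr11:99024190-99024339, minus strand): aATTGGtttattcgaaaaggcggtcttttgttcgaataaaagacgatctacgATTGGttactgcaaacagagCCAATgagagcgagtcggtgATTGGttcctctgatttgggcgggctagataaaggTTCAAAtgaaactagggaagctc
Mki67 (chr7:135716380-135716529, minus strand): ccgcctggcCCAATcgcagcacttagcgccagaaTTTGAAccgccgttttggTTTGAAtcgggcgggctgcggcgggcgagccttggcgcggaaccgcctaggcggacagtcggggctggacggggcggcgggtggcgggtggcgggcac
Cdk1 (chr10:69352913-69353062, minus strand): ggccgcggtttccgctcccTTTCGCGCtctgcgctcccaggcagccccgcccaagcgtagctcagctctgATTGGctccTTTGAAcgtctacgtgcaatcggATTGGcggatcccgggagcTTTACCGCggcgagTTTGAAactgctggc
Ube2c (chr2:164769779-164769928, plus strand): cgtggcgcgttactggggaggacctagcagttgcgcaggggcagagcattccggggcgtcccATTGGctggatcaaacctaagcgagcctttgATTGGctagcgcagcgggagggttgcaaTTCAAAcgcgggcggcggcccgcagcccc
Mcm5 (chr8:75109359-75109508, plus strand): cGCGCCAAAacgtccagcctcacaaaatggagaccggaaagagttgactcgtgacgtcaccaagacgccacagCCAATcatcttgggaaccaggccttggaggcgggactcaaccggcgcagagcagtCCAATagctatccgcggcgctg
Mcm6 (chr1:128359706-128359855, minus strand): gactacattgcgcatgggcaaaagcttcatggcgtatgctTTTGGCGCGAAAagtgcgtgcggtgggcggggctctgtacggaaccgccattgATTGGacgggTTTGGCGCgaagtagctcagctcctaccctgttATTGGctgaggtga
In the stretches of Top2a, Mki67 and Ube2c there are CHR and CCAAT letters and no E2F letters, and in those of Mcm5 and Mcm6 there are E2F and CCAAT letters and no CHR letters. Cdk1 holds all 3. A match of letters is a description of the sequence and does not show that a factor binds there.

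Values are given in reads per 1000000 assigned reads (RPM), computed from the deposited FPKM and the genomic span of each gene. RPM is not divided by length, so levels are compared between samples of 1 gene and not between genes. Assigned reads numbered 27566784 to 36814980 per lung and 31111228 in the cell product. Hemoglobin transcripts took 0.225% to 1.78% of reads in tumor_GEMy, 0.404% to 4.15% in tumor_untreated, 0.0735% to 0.252% in naive_GEMy and 0.143% to 1.15% in naive_untreated lungs. The highest share was in tumor_untreated replicate 4. Genes specific to skeletal muscle lineage, expected of rhabdomyosarcoma cells, gave little signal: 3 of 10 were listed, and they summed to at most 0.50 RPM in tumor_GEMy, 0.616 in tumor_untreated, 0.706 in naive_GEMy and 0.707 in naive_untreated lungs. The others had no row, and 0 of the 3 passed the minimum for testing. Whether tumor cells were in the lungs cannot be judged from these genes. Sample descriptions carry the number 1 in all tumor_untreated and 2 in all tumor_GEMy libraries, and whatever that stands for cannot be told apart from treatment.

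Across the 16 lungs the summed levels differed by group. The summed level of the 27 G2/M genes was 434 to 472 RPM in tumor_GEMy, 208 to 414 RPM in tumor_untreated, 234 to 269 RPM in naive_GEMy and 131 to 177 RPM in naive_untreated lungs. The 10 core G1/S genes summed to 418 to 441 RPM in tumor_GEMy, 277 to 404 RPM in tumor_untreated, 339 to 362 RPM in naive_GEMy and 273 to 277 RPM in naive_untreated lungs. For both sums the tumor_GEMy libraries lay above every other library, the naive_untreated libraries of the G2/M sum lay below every other, and tumor_untreated spanned the gap between.

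**Figure D1:**
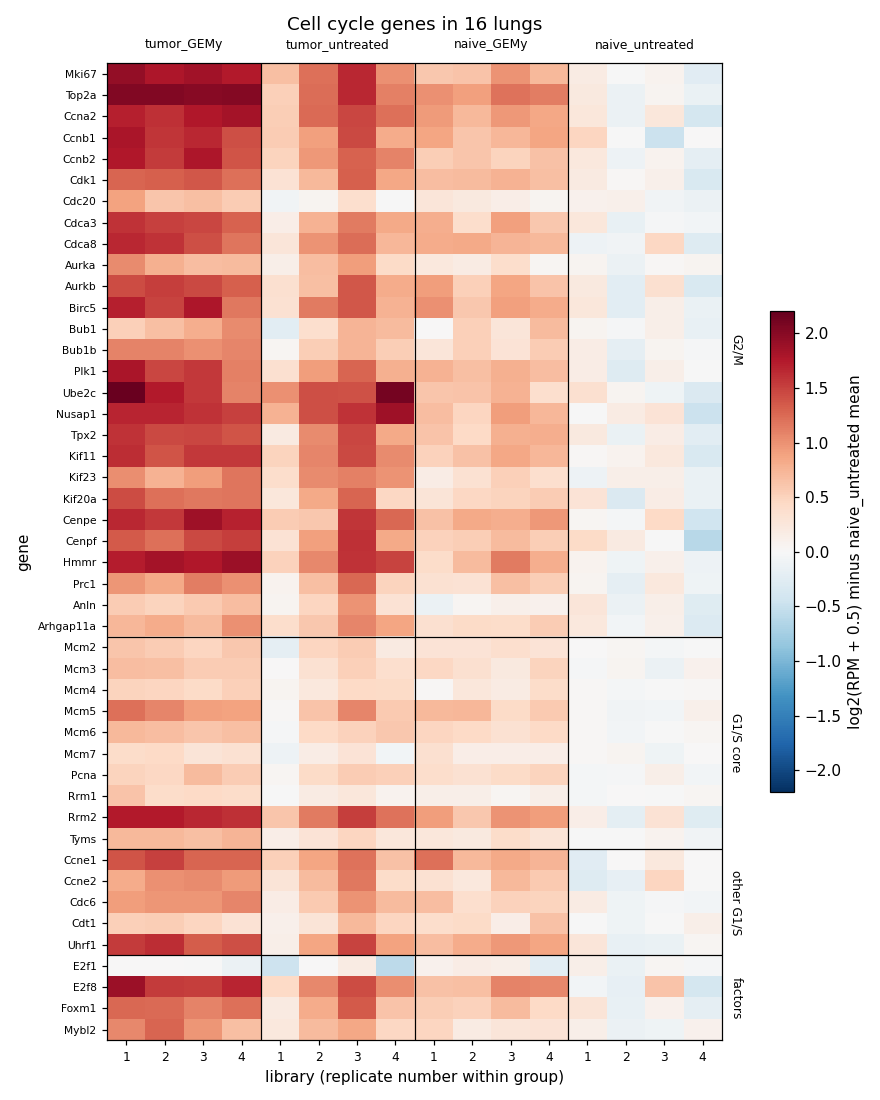
Heat map of 46 cell cycle genes (rows, by role) in 16 lung libraries (columns, by group), coloured by log2(RPM + 0.5) minus the naive_untreated mean of the gene. The 4 tumor_GEMy columns are the most uniformly red, tumor_untreated replicate 1 is pale and replicate 3 dark, and the E2f1 row stays near 0 or below it in most tumor-bearing lungs.

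The G2/M genes were read first through the proliferation markers Mki67, which encodes the Ki-67 protein of the mitotic chromosome surface, and Top2a, the topoisomerase that untangles replicated DNA. Mki67 (chromosome 7, 135689788 to 135716379) had 106, 95.7, 99.9 and 93.7 RPM in tumor_GEMy and 43.6, 63.9, 87.5 and 55.7 RPM in tumor_untreated lungs. It had 41.7, 42.8, 55.2 and 45.5 RPM in naive_GEMy and 31.0, 27.4, 29.0 and 23.0 RPM in naive_untreated lungs. All 4 groups but tumor_untreated and naive_GEMy stood apart from each other. Top2a (chromosome 11, 98992947 to 99024189) had 59.9, 59.6, 58.7 and 59.2 RPM in tumor_GEMy and 20.7, 33.8, 45.9 and 31.1 RPM in tumor_untreated lungs. Its naive_GEMy lungs had 28.8, 26.98, 33.2 and 31.6 RPM, against 16.5, 13.0, 14.8 and 12.8 RPM in naive_untreated lungs. The tumor_GEMy libraries of Top2a agreed closely, whereas tumor_untreated replicate 3 lay well above replicate 1. Relative to naive_untreated, Top2a rose by a log2 fold change of 2.03 in tumor_GEMy (SE 0.16, limma adjusted p = 6.97e-08), 1.13 in tumor_untreated (SE 0.16, adjusted p = 4.53e-05) and 1.06 in naive_GEMy lungs (SE 0.16, adjusted p = 2.87e-04).

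The cyclins and their kinase followed the same order of groups. Ccna2, cyclin A2 of S phase and G2, had 22.5, 21.0, 23.3 and 24.5 RPM in tumor_GEMy and 9.73, 16.2, 18.8 and 15.8 RPM in tumor_untreated lungs. Its values were 12.9, 11.0, 13.0 and 12.1 RPM in naive_GEMy and 7.85, 5.93, 7.85 and 4.89 RPM in naive_untreated lungs. All 4 tumor_GEMy values exceeded all others. Ccnb1, cyclin B1 that drives entry into mitosis, had 7.66, 6.47, 6.93 and 5.75 RPM in tumor_GEMy and 2.96, 3.89, 5.95 and 3.64 RPM in tumor_untreated lungs. In lungs without a tumor it had 3.77, 3.07, 3.41 and 3.79 RPM in naive_GEMy and 2.76, 1.84, 1.20 and 1.85 RPM in naive_untreated. Here tumor_untreated replicate 3 overlapped the tumor_GEMy range. Cdk1, the kinase that both cyclins activate, had 9.51, 9.77, 10.1 and 9.04 RPM in tumor_GEMy and 4.62, 6.23, 9.79 and 6.90 RPM in tumor_untreated lungs. It had 6.12, 6.17, 6.502 and 6.00 RPM in naive_GEMy and 4.22, 3.72, 3.94 and 2.76 RPM in naive_untreated lungs, with no overlap between those groups. Its log2 fold change in tumor_GEMy against tumor_untreated was 0.50 (SE 0.16) and missed the threshold of 0.05 (limma adjusted p = 0.0834).

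Among mitotic regulators, Plk1, a kinase of centrosome maturation and mitotic exit, had 10.9, 8.60, 9.20 and 6.58 RPM in tumor_GEMy and 3.71, 5.74, 7.47 and 5.15 RPM in tumor_untreated lungs. It had 5.08, 4.70, 5.17 and 4.78 RPM in naive_GEMy and 3.19, 2.22, 3.09 and 2.76 RPM in naive_untreated lungs. Tumor_GEMy replicate 4 was the low one of its group and lay within the tumor_untreated range. Aurkb and Birc5, the kinase and the survivin subunit of the chromosomal passenger complex, were close to each other in pattern. Aurkb had 8.50, 9.00, 8.54 and 7.76 RPM in tumor_GEMy and 3.74, 4.77, 8.09 and 5.33 RPM in tumor_untreated lungs, then 5.78, 4.27, 5.59 and 4.62 RPM in naive_GEMy and 3.36, 2.32, 3.76 and 2.12 RPM in naive_untreated lungs. Birc5 had 12.3, 10.4, 12.9 and 8.25 RPM in tumor_GEMy and 4.40, 8.11, 9.58 and 6.13 RPM in tumor_untreated lungs, then 7.33, 5.37, 6.78 and 6.35 RPM in naive_GEMy and 4.12, 2.83, 3.76 and 3.03 RPM in naive_untreated lungs. For both, replicate 3 of tumor_untreated reached the tumor_GEMy range, and the naive_GEMy libraries lay above the naive_untreated ones without overlap. Ube2c (chromosome 2, 164769929 to 164772902), which loads ubiquitin for the anaphase-promoting complex, had 14.2, 10.3, 9.08 and 6.41 RPM in tumor_GEMy and 6.00, 8.21, 8.02 and 13.5 RPM in tumor_untreated lungs. It had 4.44, 4.48, 5.03 and 3.69 RPM in naive_GEMy and 3.65, 2.90, 2.53 and 2.09 RPM in naive_untreated lungs. Its high tumor_untreated library was replicate 4, not replicate 3, as also for Nusap1, a spindle protein, which had 7.00, 11.3, 12.7 and 15.5 RPM in those 4 libraries. Replicate 4 was the library with 4.15% hemoglobin, and the part of that in its high values of both genes was not tested. Counts of calls with hemoglobin as a covariate are given below. Cdc20, the activator of the same complex, was called in each of the 3 comparisons that involve tumor_GEMy and was not called between the other groups. It had 12.5, 10.2, 10.7 and 9.83 RPM in tumor_GEMy and 6.15, 6.81, 8.60 and 6.47 RPM in tumor_untreated lungs, then 7.97, 7.64, 7.24 and 6.83 RPM in naive_GEMy and 6.98, 7.06, 6.15 and 5.92 RPM in naive_untreated lungs, so that the other 3 groups overlapped below tumor_GEMy.

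**Figure D2:**
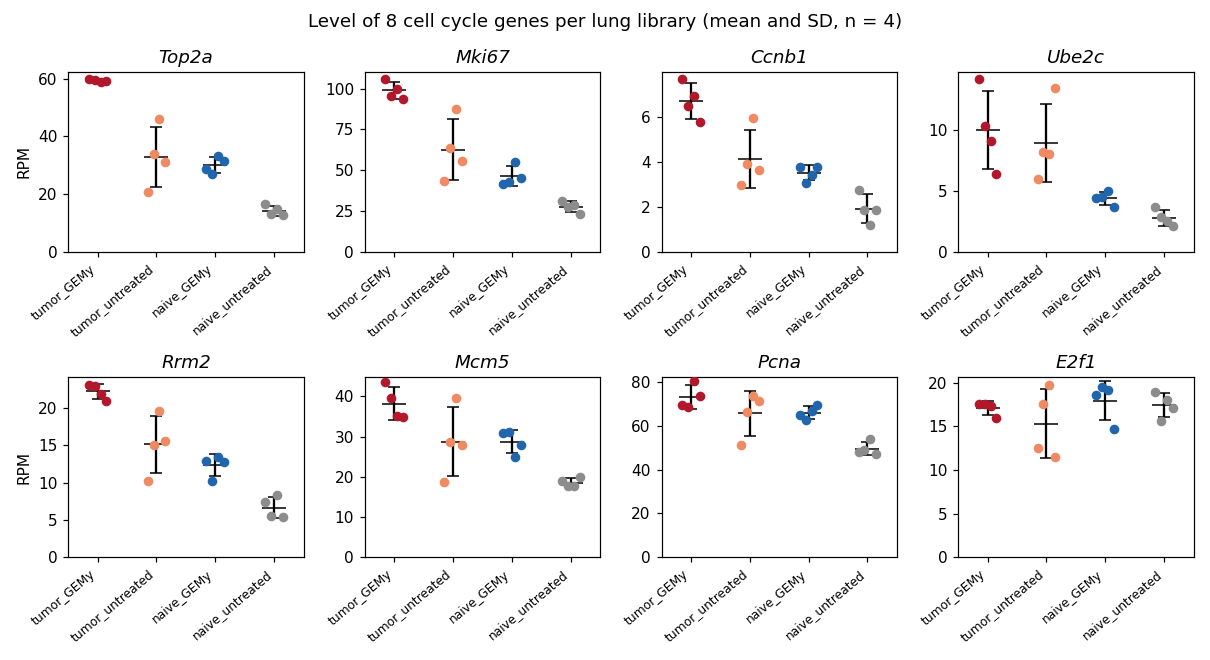
Levels (RPM, linear axes from 0) of 8 genes in the 16 lung libraries, with a point per library and bars for the mean and SD of 4 libraries. Top2a, Mki67, Ccnb1 and Rrm2 are highest in tumor_GEMy, Pcna is raised by a smaller factor, and E2f1 overlaps across the 4 groups.

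Of the 10 core G1/S genes, Rrm2 had the highest fold change in each of the 5 comparisons. Rrm2 (chromosome 12, 24708254 to 24714146), the regulatory subunit of ribonucleotide reductase that is made in S phase, had 23.1, 23.0, 21.8 and 20.9 RPM in tumor_GEMy and 10.2, 15.0, 19.6 and 15.6 RPM in tumor_untreated lungs. It had 12.9, 10.2, 13.4 and 12.8 RPM in naive_GEMy and 7.34, 5.56, 8.30 and 5.38 RPM in naive_untreated lungs, and all pairs of groups but tumor_untreated and naive_GEMy stood apart. Rrm2 rose by log2 1.69 in tumor_GEMy (SE 0.16, limma adjusted p = 5.08e-07), 1.11 in tumor_untreated (SE 0.16, adjusted p = 5.31e-05) and 0.86 in naive_GEMy lungs (SE 0.16, adjusted p = 0.00230), each against naive_untreated. Rrm1, the large subunit of the same enzyme, which is present through the cycle, had log2 fold changes of 0.47 (adjusted p = 4.76e-05), 0.12 (adjusted p = 0.154) and 0.11 (adjusted p = 0.375) in the same order. Tyms, which makes thymidylate, had 9.67, 9.67, 9.29 and 9.90 RPM in tumor_GEMy and 6.39, 7.20, 8.09 and 6.93 RPM in tumor_untreated lungs. It had 6.89, 6.69, 7.70 and 7.06 RPM in naive_GEMy and 5.71, 5.69, 6.08 and 5.42 RPM in naive_untreated lungs.

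Of the 6 subunits of the replicative helicase, Mcm5 (chromosome 8, 75109509 to 75128439) changed most. It had 43.5, 39.6, 35.02 and 34.8 RPM in tumor_GEMy and 18.8, 28.7, 39.6 and 27.8 RPM in tumor_untreated lungs, then 30.8, 31.2, 25.03 and 28.01 RPM in naive_GEMy and 18.9, 17.6, 17.7 and 20.02 RPM in naive_untreated lungs. Tumor_untreated replicate 1 was as low as the naive_untreated libraries and replicate 3 as high as tumor_GEMy. Mcm2 had 36.5, 35.4, 33.1 and 36.2 RPM in tumor_GEMy and 20.8, 33.3, 35.4 and 27.5 RPM in tumor_untreated lungs, then 29.4, 29.4, 30.9 and 29.6 RPM in naive_GEMy and 24.0, 24.6, 23.0 and 23.6 RPM in naive_untreated lungs. In tumor_GEMy against naive_untreated all 6 subunits rose, by log2 0.37 for Mcm7 to 1.02 for Mcm5. In naive_GEMy, Mcm3, Mcm5 and Mcm6 passed the threshold, while Mcm2 (log2 0.32, limma adjusted p = 0.114), Mcm4 (0.21, 0.169) and Mcm7 (0.20, 0.206) did not. Pcna, the sliding clamp of DNA polymerases, had 69.6, 68.5, 80.5 and 73.4 RPM in tumor_GEMy and 51.1, 66.5, 73.6 and 71.4 RPM in tumor_untreated lungs. It had 65.1, 62.5, 66.7 and 69.4 RPM in naive_GEMy and 48.2, 48.9, 54.0 and 47.2 RPM in naive_untreated lungs. Tumor_untreated overlapped both treated groups, and the naive_untreated libraries overlapped tumor_untreated replicate 1 alone. Pcna rose in naive_GEMy by log2 0.41 (SE 0.09, adjusted p = 0.0121), and its difference between tumor_GEMy and tumor_untreated of 0.16 missed the threshold (adjusted p = 0.399).

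The other 5 G1/S genes are low in lung, with naive_untreated means of 0.894 RPM (Ccne2) to 8.26 RPM (Cdt1). Ccne1, cyclin E1, which activates Cdk2 at S phase entry, had 4.18, 4.57, 3.84 and 3.88 RPM in tumor_GEMy and 2.08, 2.79, 3.59 and 2.31 RPM in tumor_untreated lungs. It had 3.66, 2.46, 2.71 and 2.50 RPM in naive_GEMy and 1.00, 1.295, 1.62 and 1.31 RPM in naive_untreated lungs, so every library of the other 3 groups exceeded every naive_untreated library. Cdc6, which loads the Mcm helicase at origins, had 4.75, 4.93, 4.93 and 5.36 RPM in tumor_GEMy and 2.59, 3.63, 5.01 and 3.98 RPM in tumor_untreated lungs, then 3.97, 3.07, 3.44 and 3.40 RPM in naive_GEMy and 2.65, 2.11, 2.22 and 2.15 RPM in naive_untreated lungs. Uhrf1, which keeps DNA methylation at replication forks, rose by log2 1.48 in tumor_GEMy, 0.84 in tumor_untreated and 0.83 in naive_GEMy lungs against naive_untreated (limma adjusted p = 1.81e-05, 0.00261 and 0.0122 in that order). Cdt1, a licensing factor that works with Cdc6, rose by 0.46 in tumor_GEMy and 0.40 in tumor_untreated lungs, and its change in naive_GEMy of 0.40 missed the threshold (adjusted p = 0.0564).

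Of the transcription factors, Foxm1, which raises G2/M genes, had 14.9, 14.6, 13.1 and 14.3 RPM in tumor_GEMy and 6.88, 10.8, 15.9 and 9.40 RPM in tumor_untreated lungs. It had 8.81, 8.63, 9.95 and 8.21 RPM in naive_GEMy and 7.27, 5.22, 6.33 and 5.08 RPM in naive_untreated lungs. Mybl2, the gene of B-Myb, had 4.67, 5.57, 4.36 and 3.45 RPM in tumor_GEMy and 2.41, 3.504, 3.99 and 2.93 RPM in tumor_untreated lungs, then 2.96, 2.33, 2.50 and 2.57 RPM in naive_GEMy and 2.22, 1.77, 1.83 and 2.15 RPM in naive_untreated lungs. Both genes had their high tumor_untreated value in replicate 3, and both rose in tumor_GEMy and in tumor_untreated against naive_untreated but missed the threshold in naive_GEMy (limma adjusted p = 0.0670 for Foxm1 and 0.249 for Mybl2). E2f8, a repressor that is itself made in S phase, rose in each of those 3 groups (log2 1.65 in tumor_GEMy, 0.99 in tumor_untreated and 0.86 in naive_GEMy). E2f1 (chromosome 2, 154559400 to 154569892), an activator of G1/S genes, was the exception among the 46. It had 17.6, 17.5, 17.3 and 15.9 RPM in tumor_GEMy and 12.5, 17.6, 19.7 and 11.5 RPM in tumor_untreated lungs, then 18.6, 19.5, 19.2 and 14.7 RPM in naive_GEMy and 19.0, 15.66, 18.0 and 17.2 RPM in naive_untreated lungs. Its groups overlapped in all 5 comparisons, its log2 fold changes lay between -0.21 and 0.19, and the sign of those near 0 depended on the scaling.

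A distant tumor went with higher cell cycle transcripts in otherwise untreated lungs. In tumor_untreated against naive_untreated, 40 of 46 members rose and 0 fell, where 14.7% of 15422 tested genes were called higher and 40.7% were called in either direction. By role, 25 of 27 G2/M genes, 7 of 10 core G1/S genes, 5 of 5 other G1/S genes and 3 of 4 factors rose. The median log2 fold change of the members was 0.74, against -0.09 over all tested genes. Median-of-ratios scaling turned the split of all calls from mostly lower (2271 higher and 4006 lower) to mostly higher (3102 and 2521), and 42 members were then called higher and 0 lower. The highest were Ube2c (1.48, SE 0.23, limma adjusted p = 9.46e-05), Nusap1 (1.41, SE 0.19, adjusted p = 3.02e-05) and Hmmr, a spindle-associated hyaluronan receptor (1.16, SE 0.19, adjusted p = 1.85e-04). The lowest were E2f1 (-0.21, adjusted p = 0.226), Mcm7 (0.08, adjusted p = 0.506) and Cdc20 (0.09, adjusted p = 0.532).

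The tumor_untreated libraries differed from each other in these genes more than the libraries of any other group. The coefficient of variation of a member had a median of 7.47% in tumor_GEMy, 28.6% in tumor_untreated, 10.1% in naive_GEMy and 15.0% in naive_untreated lungs. Over all tested genes its median was 10.5% in tumor_GEMy, 12.2% in tumor_untreated, 9.39% in naive_GEMy and 8.63% in naive_untreated lungs. Replicate 3 had the highest value of the group for 43 of the 46 members and replicate 1 the lowest for 45. The libraries of tumor_untreated and naive_untreated stood fully apart, with tumor_untreated higher, for only 21 members (12.1% of tested genes). The summed level of 9 natural killer and cytotoxic cell markers was 202 RPM in replicate 1 and 430.5, 435 and 466 RPM in replicates 2 to 4. Over replicates 1 to 4 in turn, T cell markers summed to 113, 148, 181 and 206 RPM. Neutrophil markers summed to 4070, 3368, 2935 and 4897 RPM, and immature myeloid granule genes to 956, 763, 731 and 1131 RPM. The part of these cells in the spread was not tested. Without replicate 1, 42 members were called, and without replicate 3, 37.

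Other cells also differed between those groups. All 9 natural killer and cytotoxic markers rose in tumor_untreated lungs (summed 202 to 466 RPM, against 77.3 to 124 RPM in naive_untreated), as did 7 of 7 mature neutrophil markers (2935 to 4897 RPM, against 185 to 272 RPM) and 5 of 10 T cell markers (113 to 206 RPM, against 85.0 to 128 RPM). Of 8 monocyte and macrophage markers 7 rose (median log2 1.23), although their sums overlapped (5935 to 6825 RPM in tumor_untreated, against 5871 to 6498 RPM in naive_untreated). Of 9 tested granule genes of immature myeloid cells 6 rose (731 to 1131 RPM, against 496 to 662 RPM), and 5 of 8 B and plasma cell markers fell (388 to 467 RPM, against 588 to 771 RPM). Among markers of the lung's own cells, 5 of 5 of airway epithelium, 4 of 7 of alveolar epithelium, 4 of 7 of endothelium and 4 of 6 of fibroblasts fell. None of these rose. Of 11 tested erythroid markers 3 rose and 2 fell, and of 8 tested progenitor markers 1 rose and 2 fell. Their part in the result was not tested.

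IL12-GEMy cells given to mice without a tumor also went with higher cell cycle transcripts. In naive_GEMy against naive_untreated, 25 of 46 members rose and 0 fell, where 5.12% of tested genes were called higher and 6.69% in either direction. Libraries of naive_GEMy lay above those of naive_untreated without overlap for 38 members, where 8.68% of tested genes did. The calls comprised 16 of 27 G2/M genes, 5 of 10 core G1/S genes, 3 of 5 other G1/S genes and 1 of 4 factors, and the members' median log2 fold change was 0.56, against -0.04 over all tested genes. The highest were Top2a, Ccne1 (0.88, SE 0.15, limma adjusted p = 0.00100) and E2f8 (0.86, SE 0.21, adjusted p = 0.0160). The lowest were Anln, an actin-binding protein of the cleavage furrow (0.03, adjusted p = 0.940), E2f1 and Rrm1. The count of calls fell to 14 without naive_untreated replicate 2 and to 16 without any 1 of naive_untreated replicate 4, naive_GEMy replicate 1 or naive_GEMy replicate 4, and 12 members were called under every setting tried.

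Of the other cell markers, 8 of 9 natural killer and cytotoxic genes rose in naive_GEMy lungs (summed 334 to 557 RPM, against 77.3 to 124 RPM in naive_untreated), and 0 of 7 neutrophil genes and 1 of 10 T cell genes. Of 8 monocyte and macrophage markers 5 rose (median log2 0.62, summed 6649 to 7189 RPM in naive_GEMy, against 5871 to 6498 RPM in naive_untreated). None of 8 B and plasma cell markers was called by limma (1 had an unadjusted p under 0.05). Markers of airway epithelium (5), alveolar epithelium (7), endothelium (7) and fibroblasts (6) were not called either. In that order 2, 0, 3 and 0 of them had an unadjusted p under 0.05. Of 11 tested erythroid markers 0 were called, and of 8 tested progenitor markers 1 rose. Their part in the result was not tested. The members were also high in the injected cells, and values of other genes of those cells are given with them. The part of injected cells in the result was not tested. The difference between the mean of naive_GEMy and that of naive_untreated lungs was 0.0926% to 1.99% of the level in the cell product for the 27 G2/M genes, with a median of 1.37%. For the 10 core G1/S genes the same share was 0.620% to 5.20%, with a median of 1.86%. For Mpo, a granule enzyme gene of immature myeloid cells with 1759 RPM in the product, the means were 2.19 RPM in naive_GEMy and 2.06 RPM in naive_untreated lungs, a difference of 0.00739% of the product level. For the 4 other granule genes with the largest ratios of product to naive_untreated lungs, 523 to 2660, the same difference was 0.150% for Elane, 0.159% for Prtn3, 0.0587% for Ctsg and 0.0343% for Ms4a3. The rest of the granule list of 10 had ratios of 0.543 to 24.0. Their differences were -9.20% for Ltf, 0.319% for Ngp, 2.12% for Camp, 11.7% for Lcn2 and 41.3% for Chil3. None of the 9 tested genes of that list of 10 was called by limma in naive_GEMy lungs (1 had an unadjusted p under 0.05). Injected cells that had lost these transcripts would not show in such values. For tumor_GEMy minus tumor_untreated means, the same share had a median of 1.84% for G2/M and 2.23% for core G1/S genes. Over the granule list it ran from -0.464% for Ctsg to 130% for Chil3, with 0.0261% for Mpo.

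In lungs of tumor-bearing mice the cells went with a further rise. In tumor_GEMy against tumor_untreated, 14 of 46 members rose and 0 fell, where 2.42% of tested genes were called higher and 5.23% in either direction. All 46 fitted differences were positive, with a median of 0.46, against -0.01 over all tested genes, and 15 members stood apart without overlap (4.38% of tested genes). The calls were 10 of 27 G2/M genes, 3 of 10 core G1/S genes, 1 of 5 other G1/S genes and 0 of 4 factors. The highest were Top2a (0.90, SE 0.16, limma adjusted p = 0.00281), Cdca3, which directs the mitotic inhibitor Wee1 to degradation (0.74, SE 0.17, adjusted p = 0.0142) and Mki67 (0.70, SE 0.15, adjusted p = 0.0119). Cdc20 was higher by 0.59 (SE 0.11, adjusted p = 0.00300), and it alone was called under every setting tried. The lowest were Cdt1 (0.07, adjusted p = 0.834), Kif23, a motor of cytokinesis (0.09, adjusted p = 0.808), and Arhgap11a, a gene of cytokinesis (0.09, adjusted p = 0.790).

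This comparison rested on the uneven tumor_untreated group. Without tumor_untreated replicate 3, 31 members were called, and 8 were called without any 1 of tumor_untreated replicates 1 or 2 or of tumor_GEMy replicates 1, 2 or 3. With only those 8 libraries in the fit, 1 member was called, of 243 genes in all, and with hemoglobin as a covariate, 8. Neutrophil markers went the other way, with 2 of 7 lower and none higher (summed 1440 to 4239 RPM in tumor_GEMy, against 2935 to 4897 RPM in tumor_untreated), and 2 of 9 natural killer and cytotoxic markers rose (425 to 678 RPM, against 202 to 466 RPM). In the same comparison 1 of 10 T cell markers and 1 of 9 tested immature myeloid granule genes rose, 1 of 8 monocyte and macrophage markers fell, and 0 of 8 B and plasma cell markers were called (1 at an unadjusted p under 0.05). Markers of airway epithelium (5), alveolar epithelium (7), endothelium (7) and fibroblasts (6) were not called. In that order 0, 3, 1 and 3 of them had an unadjusted p under 0.05. Of 11 tested erythroid markers 0 were called, and of 8 tested progenitor markers 1 fell. Their part in the result was not tested.

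Whether the cells acted differently with and without a tumor was asked by the interaction of the 2 factors. No member passed (0 of 46 by limma, with 2 at an unadjusted p under 0.05, Rrm1 and Cdc20), where 4.97% of tested genes did. The largest positive interaction values were Cdc20 (log2 0.42, SE 0.15, adjusted p = 0.132), Rrm1 (0.23, SE 0.10, adjusted p = 0.190) and Bub1b, a kinase-like protein of the spindle checkpoint (0.18, SE 0.18, adjusted p = 0.626). The most negative were Nusap1 (-0.50, SE 0.27), Ube2c (-0.43, SE 0.32) and Arhgap11a (-0.34, SE 0.19). Without tumor_untreated replicate 1, 2 members were called in the interaction, Nusap1 and Pcna, both negative. The errors, 0.32 for Ube2c, leave room for sizeable differences, so the missed threshold does not show equal effects.

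Lungs with both a tumor and the cells had the highest summed levels. In tumor_GEMy against naive_untreated, 45 of 46 members rose, all but E2f1, and the same 45 stood apart without overlap. The background was 12.5% of tested genes called higher, 36.9% called in either direction and 12.2% apart and higher. The median log2 fold change of the members was 1.22, against -0.11 over all tested genes. The calls over all genes were 1926 higher and 3762 lower, or 2623 and 1983 with median-of-ratios scaling. Top2a (2.03), Mki67 (1.83, SE 0.15, limma adjusted p = 1.58e-07) and Hmmr (1.81, SE 0.19, adjusted p = 1.68e-06) rose most. The smallest rises were Mcm7 (0.37, adjusted p = 0.00315) and Cdt1 (0.46, adjusted p = 0.00682). These 45 calls were kept under every scaling, fit and left-out library tried on the RPM scale. On the FPKM scale 30 members passed the minimum and 29 were called. Markers of other cells moved in this comparison too. Called higher were 9 of 10 T cell markers (summed 174 to 209 RPM in tumor_GEMy, against 85.0 to 128 RPM in naive_untreated), 8 of 9 natural killer and cytotoxic markers (425 to 678 RPM, against 77.3 to 124 RPM) and 7 of 7 neutrophil markers (1440 to 4239 RPM, against 185 to 272 RPM). So were 7 of 9 tested immature myeloid granule genes (858 to 1936 RPM, against 496 to 662 RPM) and 6 of 8 monocyte and macrophage markers (6101 to 6565 RPM, against 5871 to 6498 RPM), and 6 of 8 B and plasma cell markers fell (406 to 467 RPM, against 588 to 771 RPM). Among markers of the lung's own cells, 3 of 5 of airway epithelium, 2 of 7 of alveolar epithelium, 4 of 7 of endothelium and 1 of 6 of fibroblasts fell. None of these rose. Of 11 tested erythroid markers 3 rose and 1 fell, and of 8 tested progenitor markers 2 rose and 3 fell. Their part in the result was not tested.

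Among lungs that had received the cells, those with a tumor were higher. In tumor_GEMy against naive_GEMy, 32 of 46 members rose and 0 fell, where 3.85% of tested genes were called higher and 10.4% in either direction, and 41 stood apart with tumor_GEMy higher (5.92% of tested genes). The calls were 24 of 27 G2/M genes, 3 of 10 core G1/S genes (Rrm1, Rrm2 and Tyms), 2 of 5 other G1/S genes and 3 of 4 factors. Mki67 (1.09, SE 0.15, limma adjusted p = 3.05e-04), Ube2c (1.05, SE 0.23, adjusted p = 0.00842) and Hmmr (1.05, SE 0.19, adjusted p = 0.00277) rose most. E2f1 (-0.06, adjusted p = 0.801), Cdt1 (0.06, adjusted p = 0.768) and Pcna (0.14, adjusted p = 0.344) were at the low end. The tumor_GEMy lungs also held more hemoglobin transcript (0.225% to 1.78%, against 0.0735% to 0.252%), and with it as a covariate 9 members were called, of 205 genes in all. Of other cells, 7 of 7 neutrophil markers rose (summed 1440 to 4239 RPM in tumor_GEMy, against 168 to 225 RPM in naive_GEMy), as did 7 of 10 T cell markers (174 to 209 RPM, against 106 to 139 RPM), 5 of 9 tested immature myeloid granule genes (858 to 1936 RPM, against 564 to 770.5 RPM) and 1 of 8 monocyte and macrophage markers. Of B and plasma cell markers 4 of 8 fell (406 to 467 RPM, against 564 to 601 RPM), and 0 of 9 natural killer and cytotoxic markers were called by limma (1 at an unadjusted p under 0.05). Of 7 endothelium markers 1 fell, and those of airway epithelium (5), alveolar epithelium (7) and fibroblasts (6) were not called. Of 11 tested erythroid markers 3 rose and 1 fell, and of 8 tested progenitor markers 1 rose and 1 fell. The part of these markers in the result was not tested. Without tumor_GEMy replicate 1, 21 were called. The calls over all genes were 593 higher and 1014 lower, or 832 and 485 with median-of-ratios scaling, where 36 members were called.

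**Figure D3:**
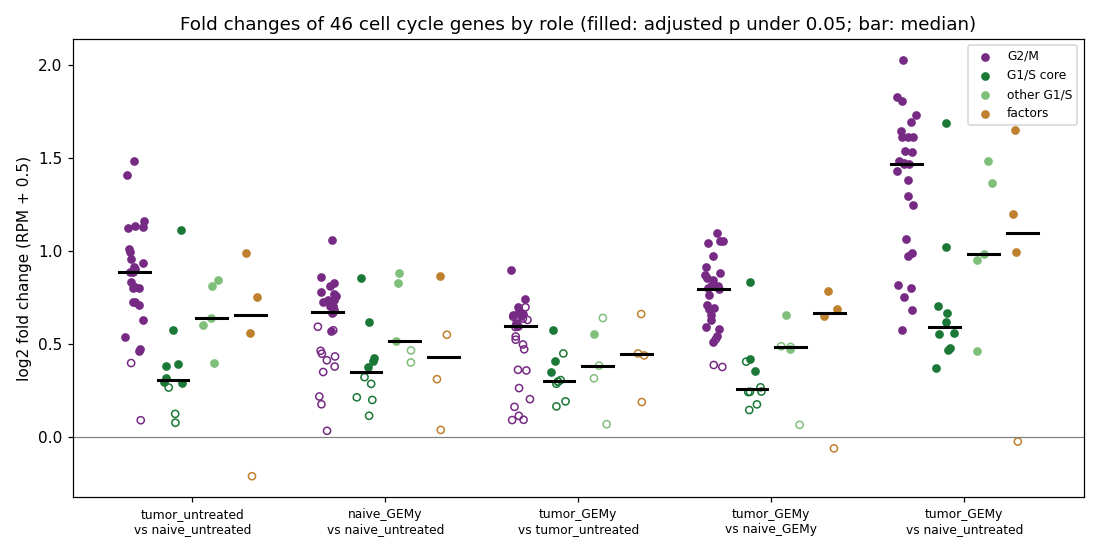
Log2 fold changes of the 46 members in 5 comparisons, a point per gene, coloured by role, filled where the limma adjusted p was under 0.05, with a bar at the median of each role. The G2/M median lies above the core G1/S median in each comparison, and Rrm2 has the highest value of the 10 core G1/S genes in each of the 5.

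The G2/M genes moved by more, in their median, than the core G1/S genes in each of the 5 comparisons. In tumor_GEMy against naive_untreated the median log2 fold change was 1.46 for G2/M and 0.59 for core G1/S genes, a difference of 0.88. In tumor_untreated against naive_untreated the medians were 0.88 and 0.30, a difference of 0.58. In naive_GEMy against naive_untreated they were 0.67 and 0.35, a difference of 0.32. Between tumor_GEMy and tumor_untreated they were 0.59 and 0.30, a difference of 0.29, and between tumor_GEMy and naive_GEMy 0.80 and 0.25, a difference of 0.54. These comparisons share groups, and the medians carry no test. The other 5 G1/S genes lay between, with medians of 0.98, 0.64, 0.51, 0.38 and 0.48 in the order given here. In naive_untreated lungs the median level was 28.2 RPM for core G1/S and 4.00 RPM for G2/M genes, not corrected for length. The part of this starting level in the gap was not tested. Per library, the G2/M median shift minus the core G1/S median shift, both relative to the naive_untreated mean, was 0.63 to 0.94 in tumor_GEMy, 0.34 to 0.80 in tumor_untreated, 0.22 to 0.41 in naive_GEMy and -0.22 to 0.18 in naive_untreated lungs. Its pooled SD within groups was 0.16. The naive_untreated libraries thus lay below all others, and naive_GEMy below all of tumor_GEMy, while tumor_untreated overlapped both treated groups. On the FPKM scale with 0.5 added, which shrinks the folds of genes with long introns, fewer members passed the minimum. Over those that passed, the differences were 0.40, 0.23, 0.08, 0.17 and 0.33 in the order given here.

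**Figure D4:**
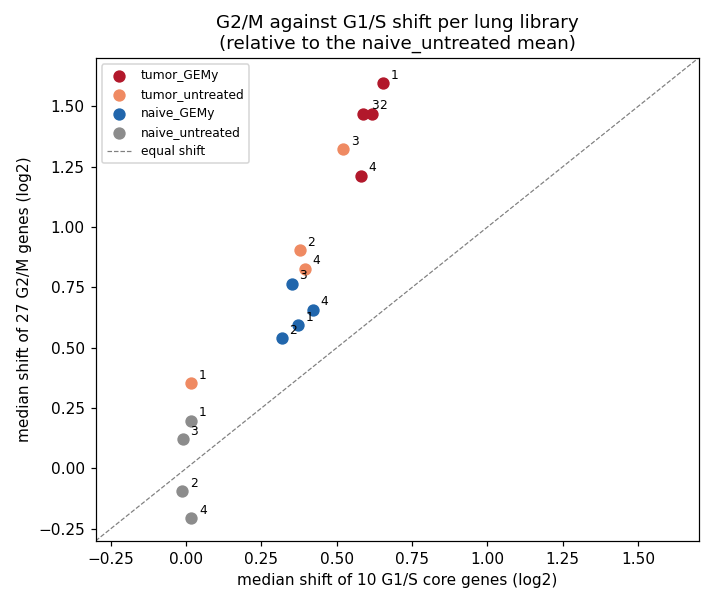
Median log2 shift of 27 G2/M genes (vertical axis) against that of 10 core G1/S genes (horizontal axis) in each of 16 lung libraries, relative to the naive_untreated mean, with the replicate number beside each point and a dashed line of equal shift. Every tumor-bearing or treated library lies above the line, tumor_GEMy at the top right.

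The cell product is a single library with no replicate, so its values are a description with counting error only. All 46 members were above the highest lung library, as were 38.7% of 15161 genes at 0.5 RPM or more on average in lung. The ratio of the product to the mean of the 16 lungs had a median of 21.8, from 3.98 for E2f1 to 36.9 for Hmmr. It was 23.5 for G2/M genes, 9.90 for core G1/S genes and 21.7 for the other 5 G1/S genes. The larger contrast of G2/M than of core G1/S genes was thus seen here too. Mki67 had 1578 RPM (exact 95% Poisson interval 1564 to 1592) in the product, against a mean of 27.6 RPM in naive_untreated lungs. Top2a had 1072 RPM (1061 to 1084) in the product, against 14.3 RPM, a ratio of 75.2. Rrm2 had 323 RPM (317 to 329) in the product, against 6.64 RPM, a ratio of 48.6. Pcna was 6.34 times its naive_untreated mean, and E2f1, at 67.6 RPM (64.7 to 70.5), 3.87 times.

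**Figure D5:**
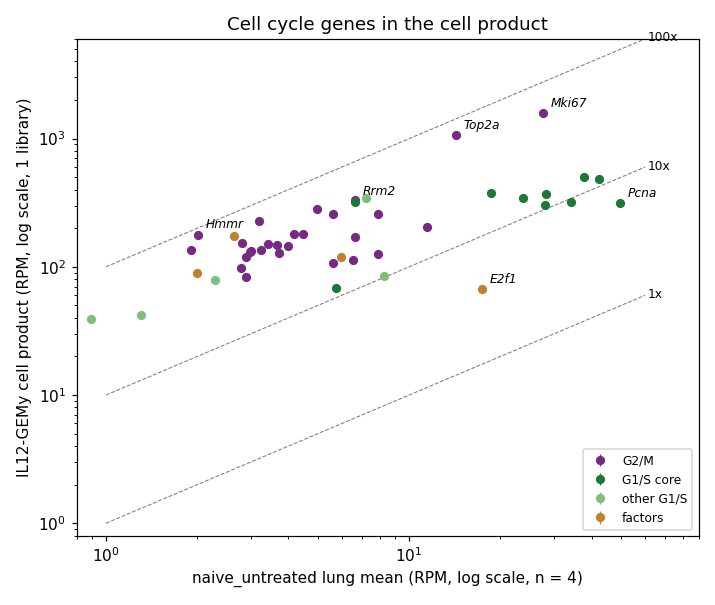
Level of each of 46 members in the IL12-GEMy cell product (vertical axis, 1 library, bars for the exact 95% Poisson interval, mostly smaller than the points) against its naive_untreated lung mean (horizontal axis, 4 libraries), both in RPM on log scales, with dashed lines at ratios of 1, 10 and 100. Most core G1/S genes lie near the line of 10, with Mcm5 (ratio 20.5) and Rrm2 (48.6) above it. The G2/M genes lie between 10 and 100, and E2f1 has the lowest ratio.

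Genes of the same processes outside the 46 were followed in fixed lists. Of 67 other mitosis genes tested, 49 rose and 1 fell in tumor_untreated against naive_untreated, 15 rose in naive_GEMy against naive_untreated, 9 in tumor_GEMy against tumor_untreated, 33 in tumor_GEMy against naive_GEMy, and 59 rose and 1 fell in tumor_GEMy against naive_untreated. Their median log2 fold changes were 0.58, 0.43, 0.37, 0.53 and 0.97 in that order. Ncapg, a condensin subunit, led in tumor_untreated (log2 1.27, SE 0.21, limma adjusted p = 1.82e-04) and in naive_GEMy (0.89, SE 0.21, adjusted p = 0.0124). The others ranked highest were Cep55 (1.06) and Sgo1 (1.06) in tumor_untreated, Dlgap5 (0.80) and Kif15 (0.75) in naive_GEMy, and Dlgap5 (0.83), Kif22 (0.74) and Gtse1 (0.70) in tumor_GEMy against tumor_untreated. Of 45 other DNA replication genes, 26, 13, 4, 9 and 35 rose in the same 5 comparisons and 0 fell, with medians of 0.34, 0.33, 0.20, 0.21 and 0.56. Over all tested genes the share called higher was 14.7%, 5.12%, 2.42%, 3.85% and 12.5% in that order. Clspn, a mediator of the replication checkpoint, led with log2 1.11 in tumor_untreated (SE 0.14, adjusted p = 1.66e-05) and 1.04 in naive_GEMy lungs (SE 0.14, adjusted p = 9.75e-05), followed by Hells (0.87) and Dbf4 (0.82) in tumor_untreated and by Mcm10 (0.99) and Asf1b (0.90) in naive_GEMy. In tumor_GEMy against tumor_untreated, Asf1b (0.77) and Mcm10 (0.68) were among the highest. Timeless, a fork protection gene, was the 1 replication gene called in the interaction (-0.50, SE 0.13, adjusted p = 0.0336).

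Genes of G1 phase and of entry into S phase were followed as well. The list of 16 G1 cyclins, kinases and activators also includes Ccne1, Ccne2, Cdk2 and the repressor E2f7. Of the 16, 8 rose in tumor_untreated (where 14.7% of tested genes were called higher) and 3 in naive_GEMy lungs (5.12%) against naive_untreated, and 0 fell. Ccne1, Ccne2, Cdk2 and E2f7 were among the 8 that rose in tumor_untreated. Their median log2 fold changes were 0.27 and 0.20, against -0.09 and -0.04 over all tested genes. Myc, a transcription factor that promotes growth, rose by 1.09 in tumor_untreated (SE 0.12, limma adjusted p = 3.22e-06) and 0.56 in naive_GEMy lungs (SE 0.12, adjusted p = 0.00805). Ccnd3, a G1 cyclin prominent in lymphocytes, rose by 0.56 and 0.30 in the same groups, whereas Ccnd1 (adjusted p = 0.115 and 0.284) and Ccnd2 (0.873 and 0.275) did not pass. E2f7, a repressor like E2f8, rose by 0.84 in tumor_untreated. In tumor_GEMy, 1 of the 16 rose against tumor_untreated (Ccne1; 2.42% of tested genes), 2 against naive_GEMy (Myc and Ccnd3; 3.85%), and 8 rose (12.5%) and 1 fell against naive_untreated.

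The list of 25 genes named cell cycle brakes included cyclin-dependent kinase inhibitors, retinoblastoma proteins and MuvB subunits. It also held Mdm2, an inhibitor of p53. The MuvB subunits, Lin54 among them, also act with B-Myb and Foxm1 to raise mitosis genes. A rise of Lin54 is thus not read as a rise of a brake. In tumor_untreated against naive_untreated 8 of the 25 rose, Lin54 among them, and 1 fell. The median log2 fold change of the list was 0.09. That share called is not above the 40.7% of all tested genes called in either direction, but 14.7% of tested genes were called higher. Cdkn1a, the p21 inhibitor, rose by 1.39 (SE 0.21, limma adjusted p = 1.18e-04) and Cdkn2d, the p19 inhibitor, by 0.94 (SE 0.11, adjusted p = 5.54e-06), while Cdkn2b, the p15 inhibitor, fell (-0.88, SE 0.21, adjusted p = 0.00357). In naive_GEMy, where 6.69% of tested genes were called, the 1 call was Rbl1, the p107 pocket protein, an E2F target itself (0.63, SE 0.14, adjusted p = 0.0104). In tumor_GEMy against tumor_untreated 0 rose and 5 fell (5.23% of tested genes were called in either direction), led by the antiproliferative genes Btg2 (-0.61, SE 0.11, adjusted p = 0.00300), Gadd45a (-0.58, SE 0.12, adjusted p = 0.00852) and Btg1 (-0.41, SE 0.11, adjusted p = 0.0356). Btg1 was the 1 gene of the list called in the interaction (-0.64, SE 0.15, adjusted p = 0.0203). In tumor_GEMy, 3 genes of the list rose against naive_GEMy, Cdkn1a, Cdkn2d and Lin54 (3.85% of tested genes were called higher and 10.4% in either direction). Against naive_untreated 5 rose and 2 fell (12.5% of tested genes were called higher and 36.9% in either direction), led by Cdkn1a (1.45), Rbl1 (0.86) and Cdkn2b (-0.80).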

How the data were processed

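The labels describe RNA from flash frozen lung, extracted with TRIzol, and standard Illumina libraries; per the submitters' processing notes, mm10, STAR 2.7.3a and Partek were used, and annotation and settings are not given in the sources used here. The authors deposited FPKM for 18262 genes in 17 libraries. FPKM times the listed genomic span, divided by 1000, summed to 1000000 in every library and was used as RPM. Converted to reads, 86.6% to 88.4% of low values (below 1000 reads) lay within 0.02 of a whole number. Log2(RPM + 0.5) of 15422 genes with at least 0.5 RPM in at least 4 lungs, all 46 members among them, was fitted with limma 3.58.1 in R 4.3.3 (4 group means, trend and robust moderation, 2-sided), with Benjamini-Hochberg adjustment over all tested genes and a threshold of 0.05. RPM was used because added values on FPKM shrink long genes more. The members, gene lists and the genes given in every library were chosen with earlier results of these data known; others named are the 3 highest and 3 lowest members of a comparison, the 3 called genes of largest change in each other list (1 is not reported here), and a few chosen after their values were seen (Cdc20, Rrm1, Uhrf1, Cdt1, the D cyclins and granule genes). Alternatives covered the pseudocount, minimum, scaling, moderation, weights, voom on recovered reads, hemoglobin, a replicate block and each library left out. The fit was tested on simulated data. Figures were drawn with matplotlib 3.10.9.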

Additional observations from a re-analysis of the deposited data

Results flagged for a closer look

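In 192 sets of 4 libraries (46 members and both median shifts, in each lung group), 8 had a highest or lowest library whose gap to the next, as a share of the range, exceeded Dixon's 95% critical value; chance flags about 1 in 20 sets. Rrm1 had 58.2 RPM in tumor_GEMy replicate 1, against 49.98 to 51.2 RPM in the other replicates. Kif20a, a kinesin of cytokinesis, had 12.7 RPM in the same library, against 10.48 to 10.8 RPM. Bub1b was low in tumor_GEMy replicate 3, at 16.2 RPM against 17.2 RPM in the other replicates. E2f1 had 15.9 RPM in tumor_GEMy replicate 4, against 17.3 to 17.6 RPM. In naive_GEMy replicate 3, Mcm2 had 30.9 RPM against 29.4 to 29.6 RPM, Cenpf, a kinetochore gene, 6.85 RPM against 5.95 to 6.08 RPM, and Rrm1 was low, at 39.0 RPM against 41.1 to 41.5 RPM. Mcm7 had 35.9 RPM in naive_GEMy replicate 1, against 31.0 to 31.2 RPM. All 8 sets are of mice that received IL12-GEMy cells, and none is of tumor_untreated, the group with the wide spread. Each gap is taken as a share of the range of its own set, so the flags do not measure the spread of a group. Their number is not above the rate of 1 in 20, and no pattern by group is read from them.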

How the results depend on the processing

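On the FPKM scale, where 30 of the 46 members passed the minimum, 25 members were called in tumor_untreated against naive_untreated, 20 in tumor_GEMy against naive_GEMy and 29 in tumor_GEMy against naive_untreated; G2/M minus core G1/S medians were 0.23, 0.33 and 0.40 there, and 0.080 in naive_GEMy against naive_untreated. The interaction values of Mki67 (0.051), Top2a (0.038), Ccnb1 (0.059) and Plk1 (0.052) turned positive. Fitting only the compared groups called 1 member of 243 genes in tumor_GEMy against tumor_untreated and 1720 genes in naive_GEMy against naive_untreated. With array weights, 25 members (2348 genes) were called in tumor_GEMy against tumor_untreated, 2672 genes in naive_GEMy against naive_untreated, 3225 in tumor_GEMy against naive_GEMy and 2049 in the interaction, with 2 members (Cdc20 and Pcna); E2f1 turned to 0.016 in tumor_untreated, 0.046 in tumor_GEMy against naive_untreated and -0.077 in the interaction, and Kif23 to -0.11 in tumor_GEMy against tumor_untreated. Voom on recovered reads called 23 members in tumor_GEMy against tumor_untreated. With hemoglobin as a covariate, 8 members were called there and 9 (205 genes) in tumor_GEMy against naive_GEMy, and E2f1 turned to -0.087 in naive_GEMy, 0.13 in tumor_GEMy against naive_GEMy and 0.040 against naive_untreated, and Anln to -0.050 in naive_GEMy. Median-of-ratios scaling turned E2f1 to 0.0081 in tumor_GEMy against naive_GEMy and 0.075 against naive_untreated, and quantile normalization turned it to 0.022 in the last and Mcm2 to 0.011 in the interaction. The cause was not tested. Other pseudocounts, minimums and plain moderation kept each member count within 1.5 times.

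Leaving out each library gave 14 to 23 members (659 to 963 genes) in naive_GEMy against naive_untreated, 8 to 31 (489 to 1099) in tumor_GEMy against tumor_untreated, 21 to 27 (780 to 1451) in tumor_GEMy against naive_GEMy, 37 to 42 in tumor_untreated, 45 in tumor_GEMy against naive_untreated and 0 to 2 (499 to 1578) in the interaction. Values that crossed 0 ranged from -0.0013 to 0.14 for Mcm7 and -0.0074 to 0.14 for Cdc20 in tumor_untreated; -0.013 to 0.13 for E2f1 and -0.056 to 0.12 for Anln in naive_GEMy; -0.018 to 0.37 for Ube2c, -0.026 to 0.17 for Cdt1, -0.074 to 0.17 for Kif23 and -0.022 to 0.21 for Arhgap11a in tumor_GEMy against tumor_untreated; -0.022 to 0.15 for Cdt1 against naive_GEMy and -0.076 to 0.014 for E2f1 against naive_untreated. In the interaction they were -0.18 to 0.075 for Mcm2, -0.23 to 0.075 for Plk1, -0.19 to 0.14 for Mki67, -0.36 to 0.016 for Top2a, -0.25 to 0.083 for Ccnb1, -0.26 to 0.083 for Aurkb, -0.28 to 0.10 for Foxm1 and -0.35 to 0.00045 for Mcm5. Replicate numbers were not taken to pair the libraries, since no comparison had all 4 same-numbered pairs correlated over 0.1 in their deviations from group means. That limit is a choice, and no chance level was computed. All 4 correlations were positive in tumor_GEMy against tumor_untreated (0.064 to 0.24) and against naive_GEMy (0.046 to 0.29). There 4 and 5 of the 8 libraries correlated best with their own number. In the other comparisons the correlations were -0.25 to 0.25, and 1 or 2 of the 8 libraries did so. Whether the numbers mark a batch was not tested. A replicate block called 19 members in tumor_GEMy against tumor_untreated (14 without it), 25 in naive_GEMy (25), 40 in tumor_untreated (40) and 35 in tumor_GEMy against naive_GEMy (32). Depth limited the low genes: Ccne2 had 0.894 RPM on average in naive_untreated lungs.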
